A study of Daphnia magna with 4 samples.

Results

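Whole Daphnia magna, a water flea that grazes on algae in fresh water, were compared with and without atrazine. Within a range of 400 feature numbers, 39 transcript features, with others lying between them, were lower in the exposed animals. The number range runs from rna5178 to rna5577 in the deposited tables. They were picked on the measured values: both untreated libraries had to reach 1 CPM (a feature's reads scaled so that each library's listed features sum to 1000000), and the lower of them had to be at least 1.5 times the higher of the atrazine libraries. Of the 400 numbers in the range, 301 have CPM values, and 39 of these meet the rule, against 14528 features with CPM values in all. The levels and fold changes below therefore describe the choice and are no test of it.

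The 4 libraries were made from pools of 3 whole animals each. Atrazine replicates 2 and 4 came from animals aged 7 days, held for 96 hours in 40 µM atrazine with DMSO as the carrier. Untreated replicates 1 and 5 came from unexposed animals, also aged 7 days. The labels do not state whether these received DMSO, so carrier and herbicide cannot be told apart. The design text mentions 5 samples, and 4 libraries were analysed here. Library totals ran from 16044118 to 17675476 reads.

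Atrazine is a triazine herbicide that blocks electron transport in photosystem II of plants and algae, and animals have no such photosystem. In whole-animal RNA, a lower count can come from less RNA per cell or from fewer cells of a type, and these cannot be told apart here. The tables identify a feature by an rna number alone. Of the 26646 IDs, 0 appear in the RefSeq gene table used here, so no gene name, role, position or sequence is given for any of them. Neighbours in number may be neighbouring genes or transcripts of one gene, and how reads shared between such transcripts were handled is not given. Gene lists and marker genes could not be applied for the same reason.

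For a typical feature of the run, exposed animals held well under the untreated level. With each feature set to its own untreated mean, the median level was 28.6% in atrazine replicate 2 and 21.2% in atrazine replicate 4, against 84.5% in untreated replicate 1 and 115% in untreated replicate 5. The median ratio of the group means was 3.95, with a lowest of 1.72 and a highest of 62.1. The untreated mean was at least 2 times the atrazine mean for 38 of the 39 features, at least 4 times for 19 and at least 8 times for 7. Together the 39 features summed to 562.2 and 452.7 CPM in atrazine replicates 2 and 4, and to 1955 and 3550 CPM in untreated replicates 1 and 5. The mean sums were 507.4 ± 77.4 CPM with atrazine and 2753 ± 1128 CPM without (SD, n = 2 each), a ratio of 5.42. The other 262 listed features of the range summed to 17133 ± 309 CPM with atrazine and 16446 ± 520 CPM without (SD, n = 2 each), a ratio of 0.96.

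**Figure D1:**
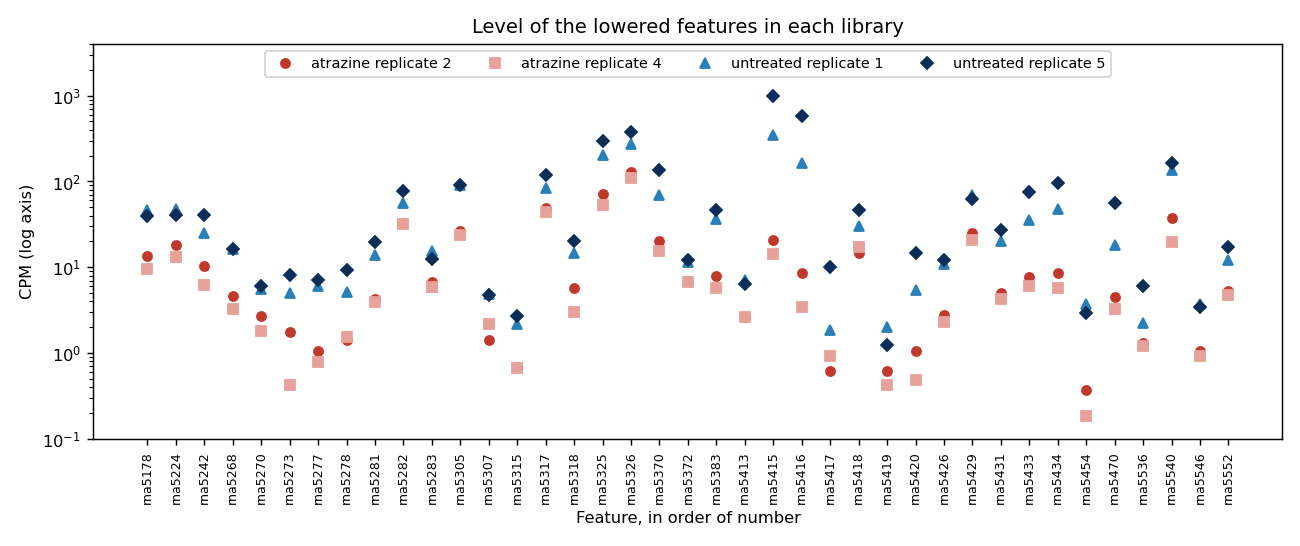
CPM (log axis) of each of the 39 lowered features in the 4 libraries, in order of feature number. The red atrazine symbols lie below the blue untreated symbols for every feature, as the choice requires, and the distance is widest at rna5415 and rna5416.

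The features of the run span a wide range of levels. In atrazine replicate 2 the lowest, median and highest were 0.374, 5.74 and 127.2 CPM, and in atrazine replicate 4 they were 0.182, 4.32 and 110.5 CPM. In untreated replicate 1 they were 1.88, 16.5 and 352.3 CPM, and in untreated replicate 5 they were 1.246, 20.2 and 989.9 CPM. Feature lengths are not in the files, so levels are not ranked between features. In reads, 4 of the 39 features had fewer than 10 in an atrazine library. The lowest was rna5454, with 6 and 3 reads with atrazine and 62 and 52 without. Its fold change thus rests on the fewest atrazine reads of the run.

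All 39 features passed the filter on low counts, and their fitted log2 fold changes (atrazine minus untreated) had a median of -1.97, with quartiles of -2.59 and -1.5 and a range of -5.94 to -0.77. The median over all listed features that were tested was 0 to within rounding (-0.00, n = 14506). An adjusted p below 0.05 in edgeR's quasi-likelihood test was reached by 26 of the 39, beside 0.869% of all 15196 tested features called lower. Because the choice used the same libraries and the same contrast, nothing is read from that count. The other 13 had adjusted p from 0.052 to 0.16 in that test. At an unadjusted p below 0.05 the lower count was 39 of 39, beside a background of 7.29%.

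The count of called features moved with the libraries in the fit. It was 0 without atrazine replicate 2 (background 0%), 3 without atrazine replicate 4 (0.0834%), 36 without untreated replicate 1 (3.73%) and 28 without untreated replicate 5 (1.02%). It was 38 with DESeq2 (2.34%), 35 with limma on the CPM as log2(CPM + 1) (1.41%) and 23 with limma-voom (0.704%). Library-size scaling called 35 (1.38%), RLE scaling 26 (0.869%) and upper-quartile scaling 26 (0.882%). The legacy quasi-likelihood method called 28 (0.921%), a filter of 1 CPM in 2 libraries 25 (0.89%), and no filter on low counts 1 (0.00468%).

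The rest of the number range, from which the rule had removed the clearest falls, lay around 0. The other 262 listed features had a median log2 fold change of -0.03, with quartiles of -0.19 and 0.16. The edgeR test called 0 of them lower and 0 higher, with backgrounds of 0.869% and 1.22% over all tested features. At an unadjusted p below 0.05 in that test, 46 of the 262 were reached. Of the 262, 27 were lower, a larger share than the 7.29% of all tested features. A further 19 were higher, a smaller share than the 10.3% of all tested features. DESeq2 called 3 lower and 4 higher, beside 2.34% and 3.82% of all. Both untreated libraries lay above both atrazine libraries for 71 of these features (27.1%), close to the 25.9% of all listed features. The reverse order was found for 57 (21.8%), against 24.2% of all listed features.

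**Figure D2:**
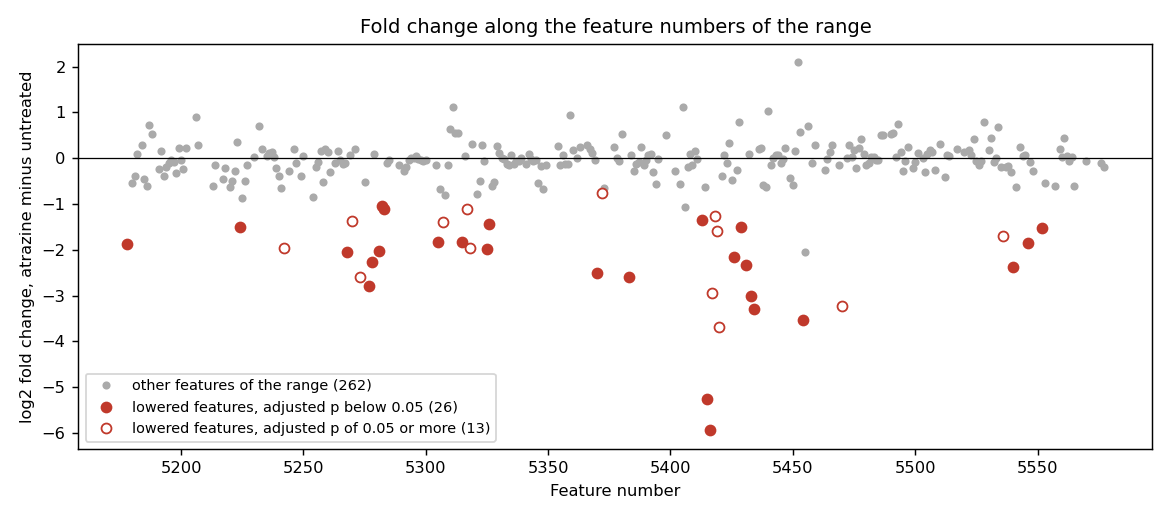
Fitted log2 fold change (atrazine minus untreated) against feature number for the 39 lowered features (red, filled for the 26 with adjusted p below 0.05, open for the 13 others) and the 262 other listed features of the range (grey). The grey points lie around 0 on both sides of the red ones.

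Lowered features and features near 0 alternate along the numbers. The 39 fall into 11 stretches when features at most 10 numbers apart are joined. Of these, 6 are single features and 5 hold the other 33. The 3 longest stretches hold 27 features, and the widest gap between successive features of the run is 66 numbers. The last lies at number 5552, which leaves the final 25 numbers of the range with none.

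The longest stretch runs from rna5413 to rna5434 and holds 12 of the 39 features among 21 listed ones. Its 12 features summed to 97.99 and 78.56 CPM in atrazine replicates 2 and 4, and to 746.9 and 1919 CPM in untreated replicates 1 and 5, a ratio of 15.1 between group means. Most of the untreated sums, but not of the atrazine sums, came from rna5415 and rna5416.

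Feature rna5415 had 20.6 and 14.23 CPM in atrazine replicates 2 and 4, and 352.3 and 989.9 CPM in untreated replicates 1 and 5. In reads these were 330 and 234 against 5819 and 17473, and its fitted log2 fold change was -5.26 (SE 0.57). Both untreated libraries were far above both atrazine libraries, and untreated replicate 5 was 2.81 times replicate 1. Its neighbour rna5416 had 8.488 and 3.466 CPM in atrazine replicates 2 and 4, and 164.4 and 577.8 CPM in untreated replicates 1 and 5. The same order of libraries was seen as for rna5415, with untreated replicate 5 at 3.51 times replicate 1. Its log2 fold change of -5.94 (SE 0.80) is the largest fall of the 39. Fitted without untreated replicate 5, rna5415 came to -4.32 and rna5416 to -4.77 on the log2 scale, and without untreated replicate 1 they came to -5.82 and -6.59. Together these neighbours made up 26.4% and 44.2% of the summed CPM of the run in untreated replicates 1 and 5, and 5.17% and 3.91% in atrazine replicates 2 and 4. Without them, the other 37 features summed to 533.1 and 435 CPM with atrazine and to 1439 and 1983 CPM without, a ratio of 3.53. Leaving them out was chosen after their values were seen, and the rule alone places both untreated sums above both atrazine sums.

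The 4 features that follow directly in number also meet the rule, and their untreated libraries differed to varying degrees. Feature rna5417 had 0.6241 and 0.9121 CPM in atrazine replicates 2 and 4, 1.877 CPM in untreated replicate 1 and 10.03 CPM in untreated replicate 5. Untreated replicate 5 thus stood apart from the other 3 libraries, at 5.34 times untreated replicate 1, the widest untreated difference of the run. Feature rna5418 had 14.48 and 17.03 CPM with atrazine and 29.91 and 46.68 CPM without, a smaller step between groups that did not overlap. Feature rna5419 had 0.6241 and 0.4256 CPM with atrazine and 1.998 and 1.246 CPM without, and here untreated replicate 1 was the higher of its group. Its counts were low, at 10 and 7 reads against 33 and 22. Feature rna5420 had 1.061 and 0.4864 CPM with atrazine and 5.449 and 14.73 CPM without, and its log2 fold change of -3.69 (SE 0.62) was the largest fall after rna5416 and rna5415. Untreated replicate 5 was 2.7 times replicate 1, close to the 2.81 of rna5415.

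Further along, the untreated libraries of rna5426, rna5429 and rna5431 were closer together than those of rna5415 and rna5416. Feature rna5426 had 2.808 and 2.311 CPM in atrazine replicates 2 and 4 and 10.78 and 12.12 CPM in untreated replicates 1 and 5. Feature rna5429 had 25.28 and 20.98 CPM with atrazine and 69.45 and 62.55 CPM without. Both showed a step between groups several times wider than the spread within them. The SD within a group was 0.352 and 0.953 CPM for rna5426 and 3.04 and 4.88 CPM for rna5429 (atrazine and untreated, n = 2 each). Feature rna5431 had 5.055 and 4.317 CPM with atrazine and 20.4 and 27.19 CPM without. At the end of the stretch, rna5433 had 7.739 and 6.02 CPM with atrazine and 35.96 and 75.58 CPM without. Its neighbour rna5434 had 8.613 and 5.777 CPM with atrazine and 47.35 and 94.95 CPM without. These last neighbours moved almost in step, with untreated replicate 5 at 2.1 and 2.01 times replicate 1. On the log2 scale rna5433 fell by 3.01 (SE 0.38) and rna5434 by 3.29 (SE 0.39). The first feature of the stretch, rna5413, had 2.621 and 2.615 CPM with atrazine and 7.084 and 6.345 CPM without, with the libraries of each group nearly level.

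Inside this stretch, the log2 fold changes of the 9 other listed features had a median of -0.11, from -0.63 at rna5414 to 0.79 at rna5428. The 5 features from rna5421 to rna5425 lie between lowered ones, and their log2 fold changes ran from -0.48 to 0.33.

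**Figure D3:**
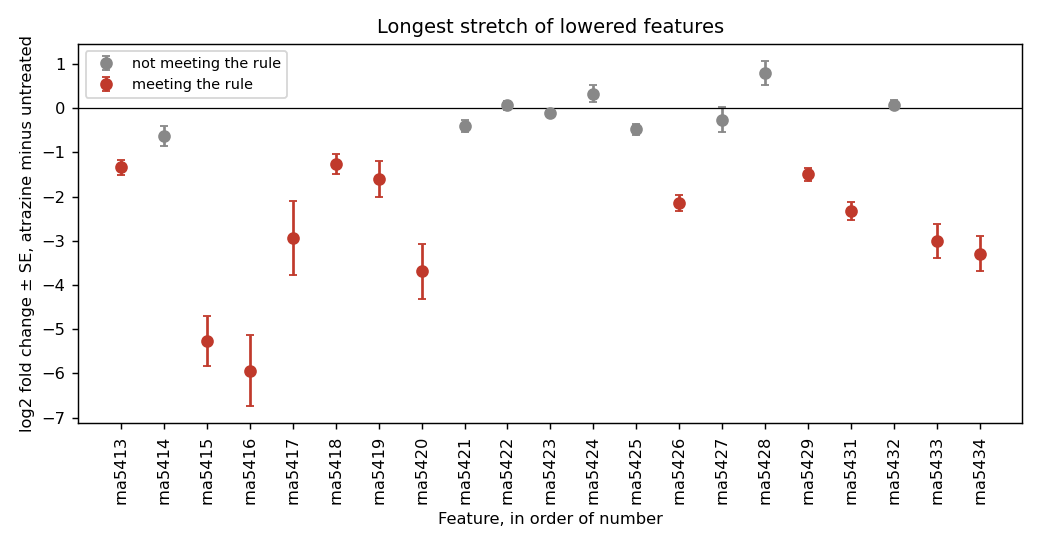
Fitted log2 fold change with its SE for the 21 listed features from rna5413 to rna5434, with the 12 lowered ones in red and the 9 others in grey. The grey features lie between -0.63 and 0.79 although red ones flank them in number.

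The other 3 stretches of at least 4 features had medians nearer to 0 than the -2.64 of the longest one. From number 5268 to 5283, 8 of 12 listed features were lowered, and they summed to 54.98 and 49.74 CPM in atrazine replicates 2 and 4 and to 124.2 and 156.5 CPM in untreated replicates 1 and 5. Their median log2 fold change was -2.04, and that of the 4 other listed features between them was 0.08. From 5305 to 5326, 7 of 20 listed features were lowered, with sums of 282.3 and 237.3 CPM against 671.3 and 909.5 CPM. Their median was -1.83, and that of the 13 others was 0.04. From 5536 to 5552, 4 of 13 listed features were lowered, with sums of 45.31 and 26.75 CPM against 154.1 and 192.5 CPM, a median of -1.77 and a median of -0.18 for the 9 others. In each of these stretches both untreated sums lay above both atrazine sums, as the choice requires. Untreated replicate 5 gave the higher untreated sum in each. Without the longest stretch, a comparison chosen after its values were seen, the median log2 fold change of the remaining 27 features was -1.87, and 18 of them had an adjusted p below 0.05 in edgeR's test, beside 0.869% of all tested features called lower. The rule used the same contrast here too, so nothing is read from this count.

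Feature rna5305, named here after its values were seen because its SE was the smallest of the run, had 26.77 and 23.71 CPM in atrazine replicates 2 and 4 and 91.12 and 91.16 CPM in untreated replicates 1 and 5. Its log2 fold change was -1.84 (SE 0.11). The untreated values nearly coincided, and both atrazine libraries lay far below them.

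At the limit of the rule, the 3 features just inside were rna5372, rna5317 and rna5536, whose lower untreated value was 1.65, 1.7 and 1.71 times the higher atrazine value. Feature rna5372 had 6.928 and 6.81 CPM with atrazine and 11.44 and 12.24 CPM without. Feature rna5317 had 49.43 and 44.57 CPM with atrazine and 84.16 and 120.4 CPM without. Feature rna5536 had 1.311 and 1.216 CPM with atrazine, 2.24 CPM in untreated replicate 1 and 6.005 CPM in untreated replicate 5. All 3 separated by group, as the rule requires, and rna5536 had a wide untreated spread. Just outside were rna5225, rna5220 and rna5450, at 1.46, 1.44 and 1.43 times. Feature rna5225 had 186.2 and 192.8 CPM with atrazine and 281.2 and 416.7 CPM without. Features rna5220 and rna5450 had log2 fold changes of -0.63 (SE 0.11) and -0.58 (SE 0.12). These 3 were picked for the highest ratios below the limit, so both untreated libraries lay above both atrazine libraries by that choice. That order was found for 25.9% of all listed features.

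Of the 39 lowered features, 17 stand directly beside another lowered one. The 34 direct neighbours that do not meet the rule, which has thus taken out the clearest falls, had a median log2 fold change of -0.15, with quartiles of -0.59 and 0.07. Those 2 to 5 numbers away had a median of 0.01 (n = 78), those 6 to 20 away -0.02 (n = 121) and those farther away 0 to within rounding (-0.00, n = 29). Both untreated libraries lay above both atrazine libraries for 12 of the 34 direct neighbours (35.3%), beside 25.9% of all listed features.

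The choice fixed the order between groups but not the order within them, and the within-group orders were uneven. Of the 39 features, 29 (74.4%) had their higher untreated value in replicate 5, against 114 of the 262 other features of the range (43.5%) and 46.4% of all listed features. In the atrazine group, 35 of the 39 (89.7%) were lower in replicate 4 than in replicate 2, against 43.9% of the others and 43.2% of all. The rising order atrazine replicate 4, atrazine replicate 2, untreated replicate 1, untreated replicate 5 was found for 26 of the 39 (66.7%). It was found for 6.49% of the others and 5.91% of all, but the rule already places both atrazine libraries below both untreated ones. Among the 350 features elsewhere that meet the same fold rule, the untreated, atrazine and full orders had shares of 84.9%, 74% and 65.4%. The lean within groups was thus also present in lowered features outside the range. Each is a difference between 1 library and another, and it was not tested.

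The sizes of these differences varied from feature to feature. The log2 difference of untreated replicate 5 over replicate 1 had a median of 0.45 and ran from -0.68 at rna5419 to 2.42 at rna5417. It reached at least 2-fold in 8 features, all higher in replicate 5, including rna5470, which had 18.41 CPM in untreated replicate 1 and 55.64 CPM in replicate 5 beside 4.556 and 3.283 CPM with atrazine. The log2 difference of atrazine replicate 4 over replicate 2 had a median of -0.36 and ran from -2.04 to 0.61. Among the 350 features elsewhere that meet the same fold rule, the medians were 0.50 (untreated pair) and -0.21 (atrazine pair). For the other 262 features of the range they were -0.06 and 0.03. Across the 39 features the difference in the untreated pair and that in the atrazine pair, which share no library, had a Pearson r of -0.05 and a Spearman rho of -0.06 (n = 39 features, which share the 4 libraries and are not replicates).

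**Figure D4:**
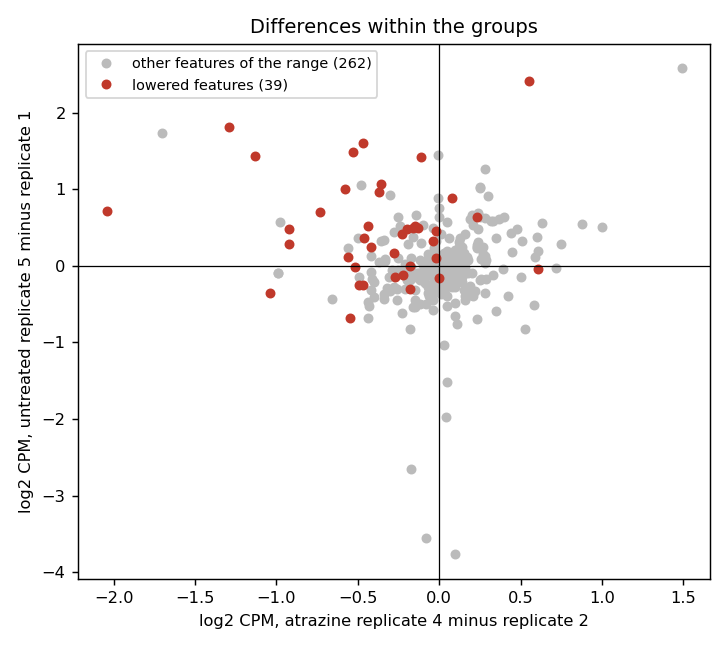
Log2 CPM difference of untreated replicate 5 over replicate 1 (vertical) against that of atrazine replicate 4 over replicate 2 (horizontal), for the 39 lowered features (red) and the 262 other listed features of the range (grey). Most red points lie to the upper left, higher in untreated replicate 5 and lower in atrazine replicate 4.

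Directly adjacent lowered features sometimes shared their untreated difference. There are 11 such adjacent pairs among 17 features, and in 4 of the 11 (36.4%) the log2 ratios of untreated replicate 5 over replicate 1 were within 0.1 of each other. These were rna5281 with rna5282 (0.49 and 0.45), rna5317 with rna5318 (0.52 and 0.48), rna5325 with rna5326 (0.52 and 0.48), and rna5433 with rna5434 (1.07 and 1), named after their values were seen. Over all 741 pairs of lowered features the share was 8.5%, and over 193 adjacent pairs of the other features it was 18.7%. The median difference in that log2 ratio was no smaller, at 0.60 for adjacent pairs and 0.60 for all pairs, because features rna5416 to rna5420 differed strongly from one to the next. Reads shared between neighbouring features could move such pairs together, and their part was not tested.

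With the groups exchanged, 4 of the 301 listed features (1.33%) meet the fold rule in the higher direction, against 3.57% of the 14227 listed features outside the range and 3.52% of all. In the lower direction the shares were 13% in the range, 2.46% outside it and 2.68% of all, and the range was itself chosen for its falls. In blocks of 400 numbers laid end to end from this range, and among the 56 blocks with at least 100 listed features, the other blocks had a median of 2.32%, from 0% to 10.3%. The block with 10.3% runs from 14778 to 15177 and holds 27 such features among 262.

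**Figure D5:**
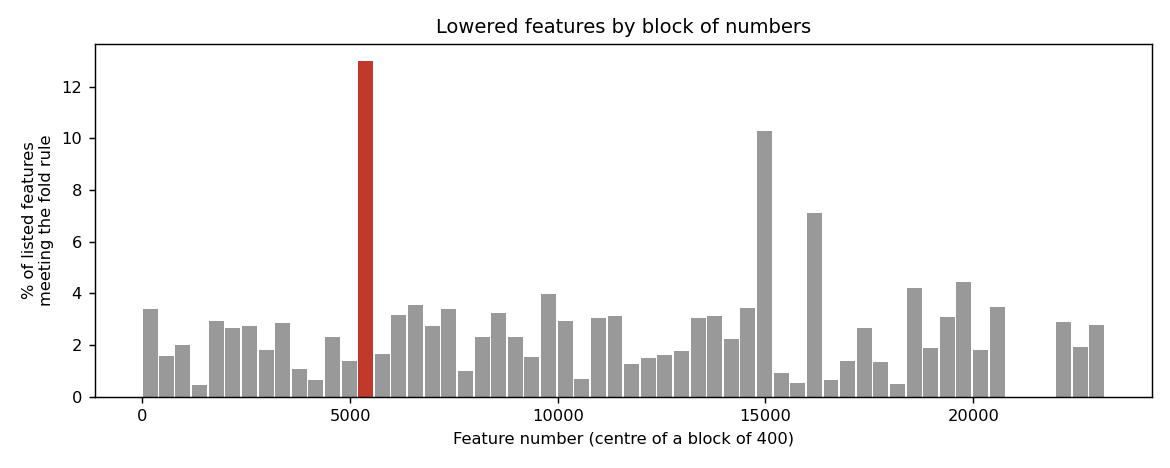
Share of listed features that meet the fold rule in the lower direction, in blocks of 400 feature numbers with at least 100 listed features. The block from rna5178 to rna5577 (red) is at 13%, and the next, from 14778 to 15177, is at 10.3%.

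The 99 features of the range with no CPM value add little. No read was counted for 31 of them in any library, and the other 68 had at most 31 reads in a library. Of these 68, 12 were tested and edgeR called 0, beside 0.869% of all tested features called lower and 1.22% called higher. In reads not scaled for library totals, 3 of the 68 were higher in both untreated libraries than in both atrazine libraries. In CPM, 25.9% of all listed features had that order.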

How the data were processed

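Per the submitters' processing notes, FastQC, Trimmomatic, GSNAP, Subread, featureCounts and edgeR were used. No version, setting, genome build or annotation is named there. The deposited raw table holds read counts for 26646 features. The deposited CPM table holds 14528 of them, and each column sums to 1000000. Dividing by 1 factor per library gave back the raw counts within 1e-06 for 100% of its values. All columns matched a library title.

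Members were taken from the deposited CPM. They, the number range and the comparisons were chosen with earlier results of these data known. Counts of all features went into edgeR 4.0.16 under R 4.3.3 (filterByExpr with a minimum count of 10, TMM scaling, quasi-likelihood F test, no covariate). Benjamini-Hochberg adjustment ran over all 15196 tested features, with a two-sided threshold of 0.05. An SE is the size of the log2 fold change divided by the square root of F. The fit was checked on simulated data. Per the labels, every library is a separate pool of animals, with no batch named. With 2 libraries per group, the test sets each difference against the spread between these pools (2 residual degrees of freedom). It also uses a spread estimated from all tested features (3.7 prior degrees of freedom).

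Features named by ID are those of the longest stretch, the 3 largest falls, the highest summed CPM and the 3 on each side of the limit. The 3 widest untreated differences are named too. The rest, including rna5454 for its low reads, were chosen after their values were seen. Alternatives were DESeq2 1.42.0, limma 3.58.1 (voom, or on log2 of deposited CPM plus 1), scaling by RLE, upper quartile or library size, other filters, limits and gaps, and each library left out. The legacy quasi-likelihood method was added after seeing the data.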

Additional observations from a re-analysis of the deposited data

How the results depend on the processing

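All 39 features kept a negative fold change in the 13 alternative fits, which their choice largely fixes. The number of them called was 23 to 38 with other scalings, DESeq2, limma and the CPM filter, and 1 with no filter on low counts, where 1 of 21361 features was called lower (0.00468%). With each library left out in turn it ran from 0 to 36, where the remaining library of the reduced group borrows its spread from the other group. The median log2 fold change of the 39 ran from -2.26 to -1.77 in those fits. Among the other features of the range, lower calls were 3 with DESeq2 (2.34% over all features), 1 with limma on the deposited CPM (1.41%) and 1 with library-size scaling (1.38%), and 0 to 13 with a library left out. Higher calls were 4 with DESeq2 (3.82% over all features) and 0 to 8 with a library left out. The highest of these counts came without untreated replicate 1. The 13 lower are 4.96% of the 262, beside 3.73% over all features in that fit, and the 8 higher are 3.05%, beside 4.31%. The median log2 fold change of the 262 was -0.07 with upper-quartile scaling and -0.04 to 0.02 with a library left out. The rule chose 39 features with TMM-scaled CPM, 32 at a 2-fold limit, 53 at the looser limit tried, 32 at a minimum of 5 CPM, and 46 to 59 with a library left out, most without untreated replicate 1. Joining features up to 20 numbers apart gave 7 stretches, and up to 5 apart gave 16. For all of these the cause was not tested. No paired analysis was possible because no replicate number occurs in both groups.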

Other observations

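Among the other 262 listed features of the range, 13 differed at least 2-fold between the untreated libraries, 7 of them higher in replicate 5 and 6 higher in replicate 1, and 3 differed at least 2-fold between the atrazine libraries. The features below were named after their values were seen. Feature rna5453 had 51.68 and 55.45 CPM in atrazine replicates 2 and 4, 68.23 CPM in untreated replicate 1 and 4.986 CPM in untreated replicate 5. Untreated replicate 5 alone was low, at 88 reads against 828, 912 and 1127. Its neighbour rna5452 had 15.6 and 14.71 CPM with atrazine, 6.66 CPM in untreated replicate 1 and 0.5666 CPM in untreated replicate 5, and rna5454, the next number up from rna5453, belongs to the 39 lowered features. Feature rna5359 had 6.241 and 5.533 CPM with atrazine, 5.328 CPM in untreated replicate 1 and 0.8498 CPM in untreated replicate 5. In these 3 features, picked from the 6 higher in replicate 1, the low value belongs to untreated replicate 5. The 7 higher in replicate 5 went the other way, among them rna5455, the next number up from rna5454. Feature rna5455 had 0.5617 and 1.581 CPM in atrazine replicates 2 and 4, and 1.271 and 7.592 CPM in untreated replicates 1 and 5.

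Feature rna5440, 6 numbers after the longest stretch, went the other way from the lowered features, with 2363 and 1783 CPM with atrazine and 1078 and 957.9 CPM without. Feature rna5405, 8 numbers before that stretch, had 198.6 and 169 CPM with atrazine and 104.6 and 67.82 CPM without. The log2 fold change was 1.04 (SE 0.22) for rna5440 and 1.11 (SE 0.22) for rna5405. The adjusted p of edgeR's quasi-likelihood test was 0.0782 and 0.0687, above the threshold of 0.05, and that of DESeq2 was 6.86e-05 and 0.000548, below it.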
